A study of Mus musculus with 12 samples.

Results

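Cells sorted from E7.5 mouse embryos as FLK1-positive FOXF1-positive were compared with cells sorted as FLK1-negative FOXF1-positive. The comparison rests on 4 of the 12 deposited samples, namely 2 arrays per population in the table summarised by gene. All 22400 genes of that table were described. The 12 samples are 6 arrays, each summarised by gene and by exon. All embryos were of the C57BL/6 background and carried a Foxf1::venus knock-in. Fluorescence of VENUS in a cell stands for activity of the Foxf1 locus. No further treatment was applied, and 50 cells per sample were sorted into lysis buffer by FACS at embryonic day 7.5. The remaining 2 gene-level arrays hold FLK1-positive FOXF1-negative cells from embryos of the same kind, and they are used here as a reference and for the estimate of the spread. Each population has a sort 1 and a sort 2. The sources used here do not give which embryos went into a sort, or whether the knock-in was on 1 or on both alleles. The p-values set a difference of means against the spread between these sorts, pooled over the populations and moderated across genes by limma.

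FLK1 is the receptor for vascular endothelial growth factor that the gene Kdr encodes, and it marks early mesoderm from which endothelium and blood arise. Foxf1 encodes a forkhead transcription factor of the extraembryonic and lateral plate mesoderm, which in the mouse is needed for the allantois and for the vessels of the yolk sac. FLK1 and FOXF1 are found together in part of this early mesoderm. Claudin 5, encoded by Cldn5, seals tight junctions between endothelial cells. Smooth muscle alpha-actin, encoded by Acta2, is a contractile filament protein of smooth muscle that is also found in other mesenchymal cells.

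The genes are given as Ensembl identifiers without names. The pairs known here are ENSMUSG00000041378 for Cldn5, ENSMUSG00000035783 for Acta2 and ENSMUSG00000042812 for Foxf1, and 0 of the 22400 identifiers matched the reference table. Kdr, which would check the FLK1 gate, was therefore not identified, nor were markers of blood, endoderm or other cell types. All signals are on the log2 scale, on which 1 unit is a doubling, and no detection calls were used here. A fold difference is therefore that of the deposited signals, and a low signal is not called absent. The array medians lay between 6.00 and 6.07.

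The RNA signal of the gene behind the reporter went against the label of the cells called FLK1-positive FOXF1-positive. Foxf1 had a signal of 4.35 in sort 1 and 4.81 in sort 2 of these cells, of 8.51 and 7.91 in the FLK1-negative FOXF1-positive cells, and of 4.71 and 4.43 in the FLK1-positive FOXF1-negative cells. The arrays labelled FLK1-positive FOXF1-positive thus overlapped with those labelled FOXF1-negative and lay below both FLK1-negative FOXF1-positive arrays. Their mean exceeded that of the FOXF1-negative arrays by 0.01 ± 0.29 log2 units (SE, 95% interval -0.66 to 0.69, limma adjusted p = 0.9999). Both means lay below the array medians of 6.00 to 6.07, so a small difference at this low signal may not show. The signal equalled that of 1 exon-level probe set, and the sources used here do not say where in the gene it lies. Cells were gated on VENUS fluorescence, whereas the array measures transcripts. Why the Foxf1 signals go against the label was not tested. These cells are called labelled double-positive below, and every direction given against them carries this doubt. The FLK1-negative FOXF1-positive cells are called FLK1-negative.

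The promoters of Cldn5 and Acta2 are shown because these genes had the greatest difference in each direction. Each stretch covers the 250 bases before the start site used in the RefSeq table of build GRCm38.p6, written 5′ to 3′ on the gene's strand. Capitals mark the motif matches described after them. The Cldn5 stretch is chr16:18776597-18776846 on the plus strand and the Acta2 stretch is chr19:34255374-34255623 on the minus strand. The start used for Acta2 lies inside the gene's full span, whose 5′ end is at 34255585, so 212 bases of its stretch fall within that span, against 0 for Cldn5. Distances are counted from the start that the promoter table uses.
Cldn5: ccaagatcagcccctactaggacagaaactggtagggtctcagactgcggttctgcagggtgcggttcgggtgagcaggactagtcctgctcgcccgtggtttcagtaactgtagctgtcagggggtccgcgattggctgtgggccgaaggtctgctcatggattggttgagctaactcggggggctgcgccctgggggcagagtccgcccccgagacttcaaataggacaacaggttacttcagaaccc
Acta2: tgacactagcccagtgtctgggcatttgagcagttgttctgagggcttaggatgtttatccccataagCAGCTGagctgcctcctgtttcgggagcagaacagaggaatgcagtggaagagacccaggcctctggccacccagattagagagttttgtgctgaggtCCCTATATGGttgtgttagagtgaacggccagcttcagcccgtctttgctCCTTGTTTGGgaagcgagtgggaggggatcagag

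Both strands were searched for short sequences that factors of blood, endothelium and muscle are known to bind. These were AGGAAG and CGGAAG for ETS factors, AGATAA and TGATAA for GATA factors, CAGCTG and CATCTG as E-boxes, ACAAT for SOX factors, and the CArG box of serum response factor. The Cldn5 stretch held none of them. The Acta2 stretch held the E-box CAGCTG from 182 to 177 bases before the start, a sequence present in 13% of the 32851 promoter stretches of the table. It held no exact CArG box, which 1.47% of the stretches have. With 1 base of the CArG core free to differ, a tolerance chosen after the sequence was seen, there were 2 matches. These were CCCTATATGG from 84 to 75 bases and CCTTGTTTGG from 34 to 25 bases before the start, and 8.59% of the stretches held at least 1 such match. No match overlapped another. A match is a run of letters and not a shown binding site.

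Cldn5 was far higher in the labelled double-positive cells. Its signal was 10.73 in sort 1 and 10.37 in sort 2 of these cells, against 3.57 and 3.59 in the FLK1-negative cells. The lower labelled double-positive array exceeded the higher FLK1-negative array by 6.78 log2 units. The difference of the means was 6.97 ± 0.22 log2 units (SE, 95% interval 6.46 to 7.49), or 126-fold on the deposited scale, with a limma adjusted p of 0.000109. Cldn5 was also bright in the FLK1-positive FOXF1-negative cells, at 9.72 and 9.54. The labelled double-positive mean was above theirs by 0.93 ± 0.22 log2 units (SE, 95% interval 0.41 to 1.44), without overlap of the arrays. With a limma adjusted p of 0.605 this difference did not pass. The FLK1-negative signal near the bottom of the scale, whose lowest value was 3.11, leaves the true fold uncertain. Each array holds pooled cells, so fewer cells with a transcript and less of it per cell cannot be told apart. The Cldn5 signal equalled that of 1 probe set.

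ENSMUSG00000093467 and ENSMUSG00000050234, which carry no name here, had the next greatest positive differences. ENSMUSG00000093467 had signals of 10.01 and 10.31 in the labelled double-positive cells against 5.35 and 4.26 in the FLK1-negative cells. Its difference was 5.36 ± 0.36 log2 units (SE, limma adjusted p = 0.00421), and its FLK1-negative sorts were further apart than those of Cldn5. ENSMUSG00000050234 had signals of 10.16 and 9.76 against 5.45 and 5.53. Its difference was 4.47 ± 0.22 log2 units (SE, limma adjusted p = 0.00141). In the FLK1-positive FOXF1-negative cells ENSMUSG00000093467 stood at 9.91 and 10.06 and ENSMUSG00000050234 at 8.40 and 8.49. Both genes thus had signals in these cells above both FLK1-negative arrays. For ENSMUSG00000050234 the labelled double-positive arrays were also above the FLK1-positive FOXF1-negative ones, by 1.52 ± 0.22 log2 units (SE, limma adjusted p = 0.230), which did not pass the threshold.

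**Figure D1:**
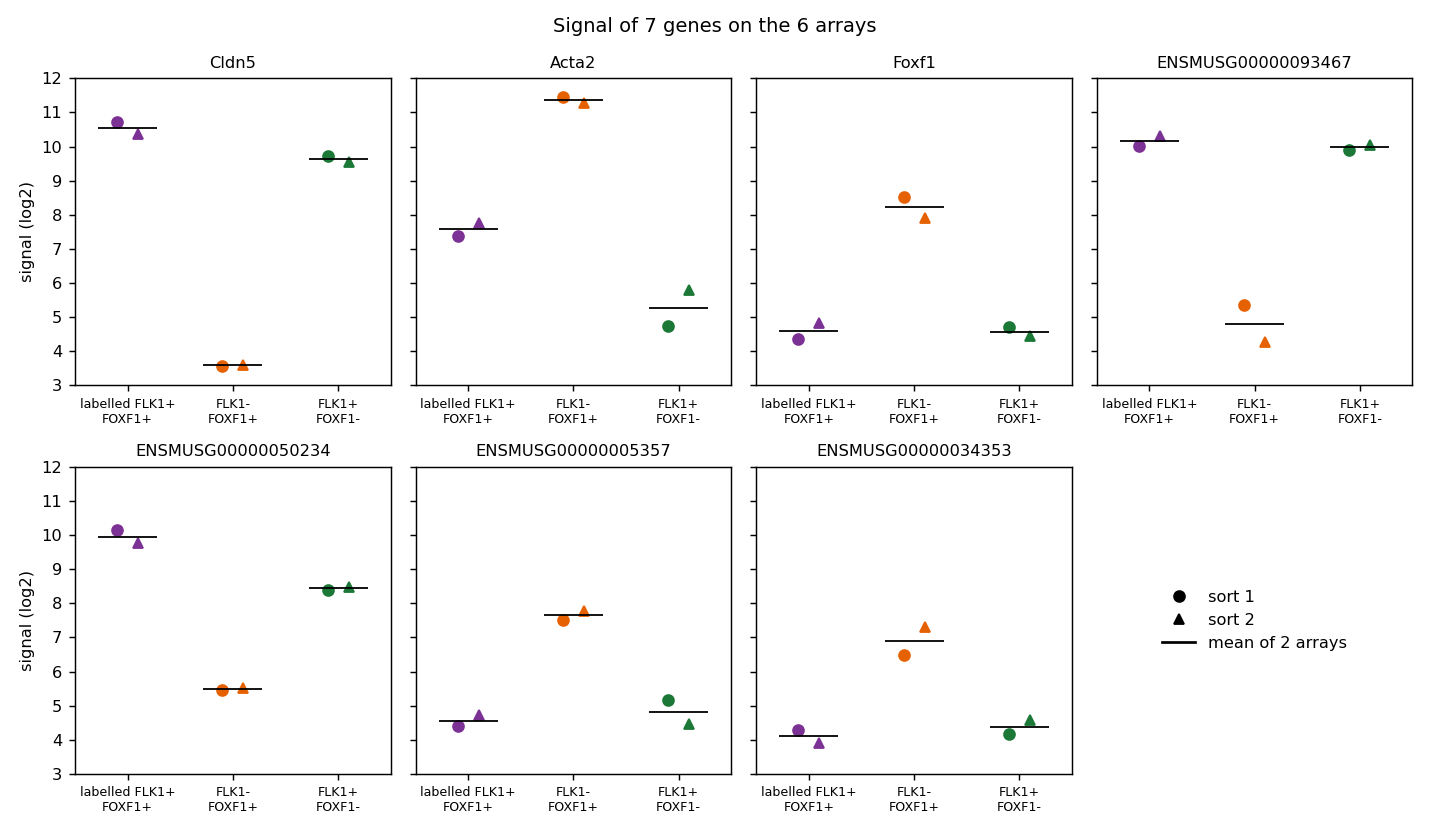
Signal on the log2 scale (vertical axis) of Cldn5, Acta2, Foxf1 and 4 unnamed genes on each of the 6 arrays, by population (horizontal axis), with a circle for sort 1, a triangle for sort 2 and a line at the mean of the 2 arrays. The FLK1-negative FOXF1-positive arrays stand apart from the others for each gene. For Cldn5, ENSMUSG00000050234 and Acta2 the arrays of the 3 populations do not overlap, and among these only Acta2 has the labelled double-positive cells in the middle. For these genes the step from labelled double-positive to FLK1-positive FOXF1-negative arrays did not pass the threshold. The Foxf1 arrays of the labelled double-positive and FOXF1-negative cells overlap.

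Acta2 had the greatest difference in the other direction. Its signal was 7.38 and 7.77 in the labelled double-positive cells against 11.45 and 11.29 in the FLK1-negative cells, so the FLK1-negative arrays were higher by at least 3.52 log2 units. The difference of the means was -3.79 ± 0.36 log2 units (SE, 95% interval -4.64 to -2.95, limma adjusted p = 0.0108), or 13.9-fold. The FLK1-positive FOXF1-negative cells had 4.72 and 5.80, the lowest of the populations. On these arrays the labelled double-positive signals of Acta2 lay between the others, with no overlap between the arrays of any pair of populations. The share of all genes with such a separation was not counted, so the order is only described. The labelled double-positive mean exceeded that of the FLK1-positive FOXF1-negative cells by 2.31 ± 0.36 log2 units (SE, 95% interval 1.46 to 3.16). With a limma adjusted p of 0.254 this step did not pass. The call against the FLK1-negative cells was lost when any 1 of the 4 arrays was left out, with limma adjusted p-values of 0.0744 to 0.158.

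Foxf1 followed Acta2, with a difference of -3.63 ± 0.29 log2 units between labelled double-positive and FLK1-negative cells (SE, 95% interval -4.31 to -2.95, limma adjusted p = 0.00751), or 12.4-fold. Both populations were sorted as VENUS-positive, so this difference lies within the FOXF1-positive gate as labelled. The low labelled double-positive signals of Foxf1, 4.35 and 4.81 on 1 probe set, leave the true fold uncertain. Without labelled double-positive sort 1 or sort 2 the limma adjusted p of Foxf1 was 0.0911 or 0.0545, and that of ENSMUSG00000093467 was 0.067 or 0.0545.

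ENSMUSG00000005357 and ENSMUSG00000034353, also unnamed here, came next among the lower genes past the threshold. ENSMUSG00000005357 had signals of 4.40 and 4.72 in the labelled double-positive cells against 7.52 and 7.79 in the FLK1-negative cells, a difference of -3.10 ± 0.29 log2 units (SE, limma adjusted p = 0.0108). ENSMUSG00000034353 had 4.27 and 3.92 against 6.49 and 7.30, a difference of -2.80 ± 0.32 log2 units (SE, limma adjusted p = 0.0244). Its signal was the mean of 2 exon-level probe sets to within rounding. The first read 4.21 and 3.78 against 6.75 and 7.17 and the second 4.34 and 4.05 against 6.23 and 7.44, so each of them separated the populations without overlap. The FLK1-positive FOXF1-negative cells had 5.17 and 4.45 for ENSMUSG00000005357 and 4.17 and 4.58 for ENSMUSG00000034353, close to the labelled double-positive arrays. ENSMUSG00000005357 lost its call when any 1 of the 4 arrays was left out, with limma adjusted p-values of 0.0646 to 0.158. For ENSMUSG00000034353 the call was lost in 5 of the 6 fits without 1 array and held without FLK1-negative sort 1. Its difference lay between -3.21 and -2.39 log2 units in these fits. The 2 fits without a FLK1-positive FOXF1-negative array gave the same values as the fit of the 4 arrays alone, so they are not separate checks.

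Across all genes, 64 passed a limma adjusted p of 0.05, which is 0.286% of the 22400 tested. Of these, 49 were higher in the labelled double-positive cells (0.219% of the genes tested) and 15 were lower (0.067%). Without labelled double-positive sort 1 or sort 2 the counts were 2 and 0 or 10 and 0, and without FLK1-negative sort 1 or sort 2 they were 18 and 3 or 20 and 4. Without either FLK1-positive FOXF1-negative array they were 32 and 9, in fits that all had less information on the spread. The higher genes thus made up 76.6% of the calls, while 48.9% of all genes had a higher mean in the labelled double-positive cells and the median difference over all genes was -0.01 log2 units. At an unadjusted limma p under 0.05 there were 1313 genes, or 5.86%.

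**Figure D2:**
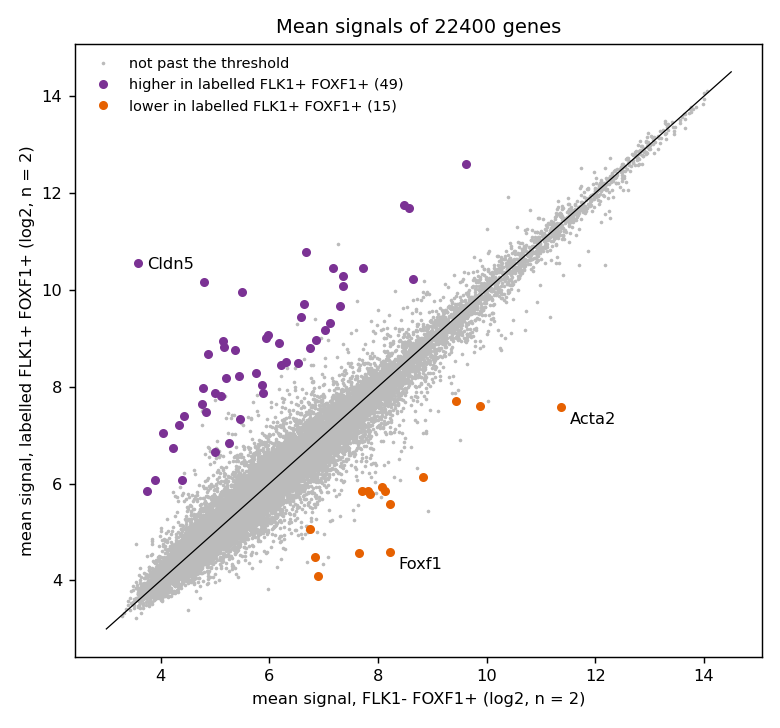
Mean signal of the labelled double-positive arrays (vertical axis, log2) against that of the FLK1-negative FOXF1-positive arrays (horizontal axis, log2) for 22400 genes, with n = 2 arrays each and the line of equal signal. The 49 higher and 15 lower genes past the threshold are coloured, and Cldn5 has the lowest FLK1-negative signal among the coloured genes and the greatest distance from the line.

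Differences of 1.57 to 6.97 log2 units were called in the higher genes and of -3.79 to -1.68 log2 units in the lower ones. Those of the 49 higher genes had a median of 2.80 log2 units, with quartiles of 2.18 and 3.09, and 16 of the 49 reached 3 log2 units. Those of the 15 lower genes had a median of -2.29 with quartiles of -2.74 and -2.01, and 3 of the 15 reached 3 log2 units. Arrays of the populations did not overlap for any of the 64 called genes, and the gap between the nearest arrays was 1.36 to 6.78 log2 units among the higher genes and 1.57 to 3.52 among the lower ones. Over all genes, the arrays did not overlap in 15.5% with the labelled double-positive cells higher and in 16.9% with them lower. Passing the threshold with so few arrays nearly requires arrays that do not overlap, so the absence of overlap adds nothing about the called genes.

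Signals of the called genes covered much of the scale in both populations. Being chosen for their difference, they tend to lie above the median gene in the population where they are higher, so the counts that follow describe them and test nothing. The mean labelled double-positive signal was above the median gene for 48 of the 49. The mean FLK1-negative signal was below the median gene for 29 of the 49 and above it for the others, with a range of 3.58 to 9.62. For those other genes the FLK1-negative signal was lower but not near the bottom of the scale. Among the 15 lower genes, the FLK1-negative mean was above the median gene for 15 and the labelled double-positive mean was below it for 11.

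The called genes gave a like picture on each array. The 49 higher genes had a median signal of 8.80 and 8.61 in labelled double-positive sort 1 and sort 2, and of 5.79 and 5.53 in FLK1-negative sort 1 and sort 2. In the FLK1-positive FOXF1-negative arrays, which entered the calls only through the pooled spread, their medians were 8.53 and 8.49. The 15 lower genes had medians of 5.68 and 5.83 in the labelled double-positive arrays, 7.93 and 8.04 in the FLK1-negative arrays and 5.71 and 5.73 in the FLK1-positive FOXF1-negative arrays. For both directions the FLK1-negative medians stood apart from the other medians. The genes were chosen for the difference between labelled double-positive and FLK1-negative arrays, so only the FLK1-positive FOXF1-negative medians are free of that choice, and no test was made on them.

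**Figure D3:**
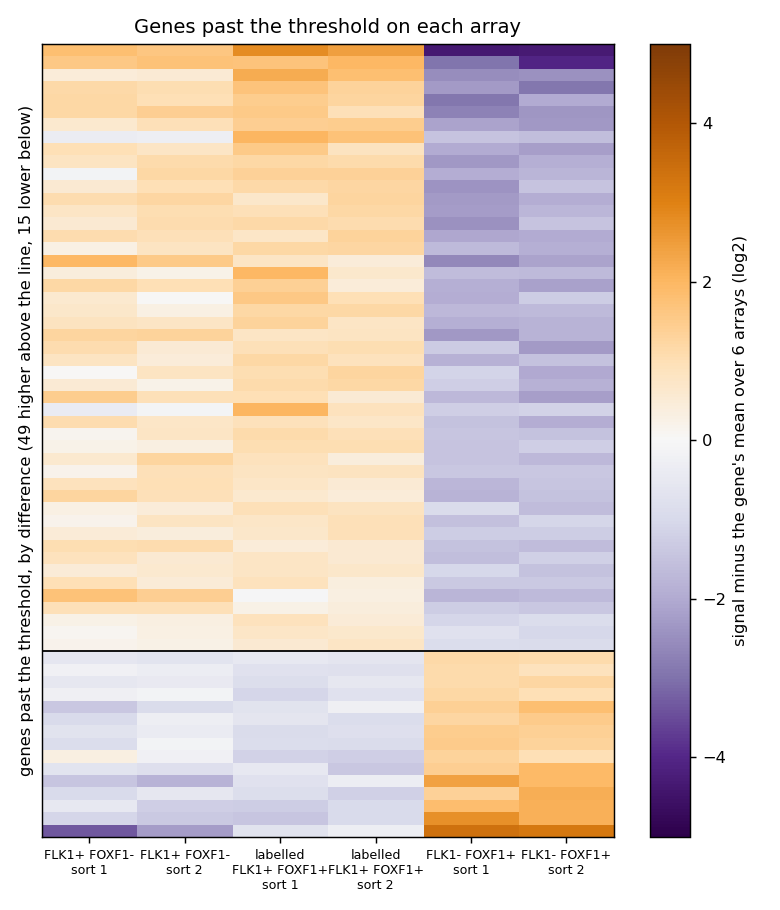
Signal of the 64 genes past the threshold (rows, ordered by difference, 49 higher above the line and 15 lower below it) on the 6 arrays (columns), as the log2 signal minus the gene's mean over the 6 arrays. Both FLK1-negative FOXF1-positive arrays contrast with the other arrays in both blocks, though in some rows the FLK1-positive FOXF1-negative arrays lie nearer to them. In the bottom row, Acta2, and in some other rows, the labelled double-positive arrays lie between those of the other populations.

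Many genes with sizeable differences did not pass. Of 60 genes that were higher by at least 2 log2 units in the labelled double-positive cells 70% passed, and of 27 that were lower by as much 40.7% passed. The 18 higher genes of this size that did not pass had a median residual SD of 0.553 log2 units, against 0.290 for the 42 that passed. For the lower genes these SDs were 0.584 for the 16 that did not pass and 0.327 for the 11 that passed. The median residual SD over all genes was 0.246. A larger spread between sorts thus went with the missing calls, as the test is built to do. At a difference of at least 1 log2 unit there were 290 higher and 246 lower genes, of which 16.9% and 6.10% passed. The 95% interval of a difference extended a median of 0.589 log2 units to either side before any adjustment. The smallest difference that passed was 1.57 log2 units, so with 2 arrays per population a gene that did not pass is not shown to be equal.

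**Figure D4:**
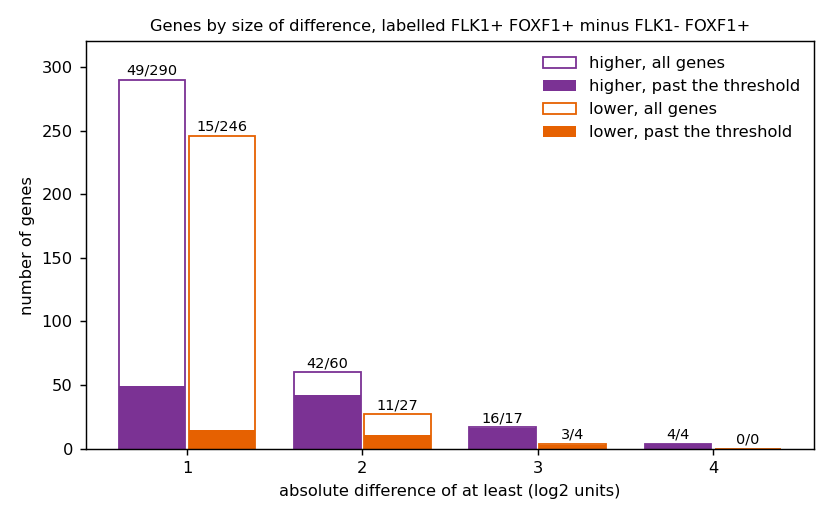
Number of genes (vertical axis) whose absolute difference between labelled double-positive and FLK1-negative FOXF1-positive cells is at least 1, 2, 3 or 4 log2 units (horizontal axis), with open bars for all genes and filled bars for those past the threshold. The share that passed rises with the size of the difference in both directions, and 4 higher but 0 lower genes reached 4 log2 units.

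Some of the called genes rest on 1 probe set. The gene signal equalled that of 1 exon-level probe set on all 6 arrays for 11 of the 49 higher genes, or 22.4%, and for 1 of the 15 lower genes, or 6.67%. This held for 28.7% of all genes. Cldn5, ENSMUSG00000093467 and Foxf1 are among them, so their values rest on few probes, while Acta2 is not.

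Cell cycle genes gave no calls. The marker pairs of the scran package, which assign mouse cells to a phase, use Ensembl identifiers and could be matched. Among genes that lead pairs of 1 phase alone, 11 of G1, 36 of S and 28 of G2/M were measured, and 0 of them passed in either direction, where 0.286% of all genes did in limma. At an unadjusted limma p under 0.05 there were 1, 2 and 4 of them, where 5.86% of all genes had such a p. Their median differences were 0.17, -0.09 and 0.06 log2 units, and the widest single values were -0.73 and 0.95, both among the G2/M genes. With lists this short and so few calls among all genes, the count says little.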

How the data were processed

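RNA of sorted cells was measured on Affymetrix mouse exon arrays after whole-transcript labelling, per the labels' protocols. The values the authors deposited are log2 signals made with Affymetrix Power Tools and RMA, per the submitters' processing notes, which give no versions. That they are on a log2 scale was inferred from their range of 3.11 to 14.17. The sources used here do not give how probe sets were combined by gene. The values were used as deposited.

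Each of the 22400 genes was fitted over all 6 gene-level arrays with population as the only factor (lmFit and eBayes of limma 3.58.1, R 4.3.3; 3 residual and 4.27 prior degrees of freedom). The two-sided p-values of the contrast were adjusted by Benjamini-Hochberg over all genes, and an adjusted p under 0.05 passed. The fit was also run on 20 simulated data sets with 200 changed genes each. It recovered 3.4% of changes of 1 log2 unit and 75% of changes of 2 log2 units, and 4.95% of its calls were false. The simulated noise came from the fit's own model without a sort effect, so this checks the code and not the real arrays. The precision is limited by 2 arrays per population; the median standard error was 0.251 log2 units.

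The text names Cldn5, Acta2, Foxf1 and, per direction, the 2 unnamed genes past the threshold with the greatest differences and no overlap. The rule for named genes also allowed members of 23 lists of gene symbols; these lists and the filter on named genes could not be run, because the reference table (49997 genes) holds no Ensembl identifiers. The members and lists were chosen with earlier results of these data known. Promoters are from RefSeq; 2 of the 3 named genes were matched. Cell cycle lists came from scran 1.30.0 and were added once the data were known. The plots used matplotlib 3.10.9 (Python 3.11.15). Alternatives were quantile normalization, median centring, leaving out the dimmer 50% of genes, an intensity trend with robust prior, the 4 arrays alone, the sort number as a block, leaving out genes equal to 1 probe set, a test against a 1.5-fold difference, and leaving out each array.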

Additional observations from a re-analysis of the deposited data

How the results depend on the processing

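Quantile normalization, median centring, leaving out the dimmer 50% of genes and the intensity trend with robust prior kept the counts within 1.5 times 49 higher and 15 lower genes. Quantile normalization gave 55 and 21, which held all 64 genes. The fit without the dimmer 50% of genes gave 51 and 15, with 42 of the 49 and 10 of the 15 among them. Foxf1, ENSMUSG00000005357 and ENSMUSG00000034353 were among the genes it left untested. Fitting only the 4 arrays compared gave 32 higher and 9 lower genes, with fewer residual degrees of freedom. Leaving out either FLK1-positive FOXF1-negative array gave the same values, since the lone array left adds nothing to the spread. These fits are thus 1 check. Testing against a 1.5-fold difference gave 27 and 5, since it demands more of each gene. Leaving out genes equal to 1 probe set gave 48 higher and 23 lower genes. Of these, 38 and 14 were among the 49 and 15, and the cause of the added genes was not tested. Fits without 1 of the arrays called 2 to 32 higher and 0 to 9 lower genes, with fewer degrees of freedom each time and, for an array of the populations compared, a lone array assumed to vary like the others. The lowest counts came without labelled double-positive sort 1 (2 and 0) and sort 2 (10 and 0), against 18 and 3 or 20 and 4 without FLK1-negative sort 1 or 2. A replicate block for the sort number left 42 higher and 14 lower genes. Between populations, the sort 1 minus sort 2 differences had correlations across genes of 0.0591 to 0.137, not all over 0.1, so the sorts were not taken as paired. Cldn5 and ENSMUSG00000050234 passed in every fit run for them, and no difference of the 7 genes described changed sign. ENSMUSG00000034353 lost its call with the 4 arrays alone (limma adjusted p = 0.0576) and against a 1.5-fold difference (0.0613); the other losses, all on leaving out an array, are given with the genes. The test of named genes only was not run.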
